A study of Homo sapiens with 20 samples.

Results

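Transcript levels of 8 related membrane protein genes, TMEM87A, TMEM87B, GPR107, GPR108, GPR180, TMEM145, TMEM181 and WLS, were examined in orthotopic ovarian tumors. They were chosen by symbol as the GOLD-domain heptahelical family, by a rule that uses no measured value, although earlier results of these data were known when the family was picked. All 8 were found among the 24196 genes of the expression table, and all 8 were among the 12486 genes with a mean of at least 0.5 FPKM (fragments per kilobase of transcript, scaled to the total fragments of the library). The tumors grew from OVCAR8 cells, an established human line of high-grade serous ovarian carcinoma, in NSG mice, which lack mature lymphocytes. One group of 4 tumors came from mice given the vehicle PBS and the other group of 4 from mice given sodium gluconate, as the labels have it. The methods of the study describe weekly intraperitoneal injection of both. They also describe luciferase-tagged cells injected into the ovarian fat pad of young mice. A figure legend of the study gives its PBS-treated and gluconate-treated tumors as grown from the luciferase-tagged non-targeting control line (sgNC). The labels name OVCAR8 alone, and no group used here carried a knockout by its label. The results text of the study speaks of gluconate-treated OVCAR8 cells instead, so the material is called tumor here on the labels alone. The comparison asks whether gluconate, a ligand of the TMEM87A protein, went with a different transcript level of TMEM87A or its relatives. The cultured sgNC, CHP1-knockout and TMEM87A-knockout cells of the series were not analysed here.

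Proteins of this family have a luminal or extracellular GOLD domain (named for Golgi dynamics) followed by a bundle of membrane-spanning helices. Most of them sit in the Golgi apparatus or cycle between the Golgi, endosomes and the cell surface. WLS, also called Wntless, carries lipid-modified WNT proteins to the cell surface and is returned to the Golgi by the retromer coat. TMEM87A has been described as a cation channel of the Golgi membrane and as a part of mechanosensing at cell adhesions.

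Sequencing depth separated 1 library from the rest. PBS replicate 4 held 3942327 fragments, and the other 7 libraries held between 39221668 and 46423868. Of the labelled ovarian carcinoma cells, 8 of 10 marker genes were at 1 FPKM or more in every library, while KRT19 and MUC16 stayed under 1 FPKM in all 8. The summed carcinoma markers ranged from 1924 to 2507 FPKM in PBS and from 1770 to 2324 FPKM in gluconate tumors, most of it from KRT8 and KRT18 (medians of 852 and 680 FPKM). Of the 8 markers tested, 1 was under an unadjusted p of 0.05, as were 4.62% of all genes tested, and without PBS replicate 4 it was again 1, beside 6.18% of all genes. This was KRT7, at 219.7 ± 89.1 FPKM in PBS and 344 ± 52.6 FPKM in gluconate tumors (SD, n = 4 each; limma, adjusted p = 0.740, and 0.802 without PBS replicate 4). The more abundant KRT18 (780 ± 183 and 609 ± 84.3 FPKM) and KRT8 (906 ± 126 and 786 ± 81.4 FPKM) had lower means in gluconate tumors and did not pass. PBS replicate 4 was the lowest library for PAX8 (32.4 FPKM), KRT7 (124 FPKM), EPCAM (10.3 FPKM) and CD24 (78.5 FPKM), and the highest for WT1 (6.58 FPKM). The summed 9 fibroblast markers were at 45.3 FPKM in PBS replicate 4, between 129.7 and 185 FPKM in the other PBS tumors and between 165 and 192 FPKM in gluconate tumors, with COL1A2, DCN, PDGFRA and THY1 under 1 FPKM throughout. COL1A1 alone made up most of that sum, at 41.4 FPKM in PBS replicate 4. All 7 endothelial markers were under 1 FPKM in every library, as were PTPRC, CD14, CSF1R and LYZ of the myeloid list, whose sum of 20.8 to 28.9 FPKM over the 8 libraries was almost all CD68 (26.0 ± 1.39 FPKM in PBS and 23.4 ± 3.12 FPKM in gluconate tumors). The part of depth and of these markers in the results below was not tested. In RNA from whole tumors, fewer cells of a type and less RNA per cell cannot be told apart. Host cells of these tumors are from the mouse, the values are for human genes, and any removal of mouse reads is not given. The fibroblast, endothelial and myeloid markers therefore do not measure how many host cells were present.

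The members lie on 7 chromosomes of GRCh38 in the GENCODE 29 annotation. TMEM87A spans chr15:42210452-42273663 on the minus strand and TMEM87B spans chr2:112055223-112119318 on the plus strand. GPR107 spans chr9:130053426-130140169 on the plus strand, and its paralog GPR108 spans chr19:6729914-6737603 on the minus strand. WLS spans chr1:68098473-68233120 on the minus strand. GPR180 is at chr13:94601903-94634645, TMEM145 at chr19:42313325-42325062 and TMEM181 at chr6:158536436-158635428, all on the plus strand. The longest coding transcripts of TMEM87A and TMEM87B both have 555 codons, so the paralogs differ in sequence and not in coding length.

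Because TMEM87A and TMEM87B are paralogs, their transcripts were compared for stretches that reads could not separate. The forward RT-qPCR primer of the study for TMEM87A is shown with the TMEM87B stretch most like it, to show how far the paralogs have diverged in coding sequence. Capitals mark the bases at which TMEM87B differs.
TMEM87A, exon 9, chr15:42237495-42237517, minus strand: gattggtgctgtcatcttcctgg
TMEM87B, exon 8, chr2:112081433-112081455, plus strand: gattgCAgctgtTatTttTTtgg
The sequences differed at 6 of 23 bases. The longest run that TMEM87A-202 and TMEM87B-201 had in common was 20 bases, in coding exon 18 of TMEM87A (chr15:42218350-42218369) and coding exon 17 of TMEM87B (chr2:112107794-112107813).
Run common to TMEM87A and TMEM87B: gatttgaagtgggtagaaga
For GPR107 and GPR108 the longest common run was 14 bases, in coding exon 12 of each (chr9:130101122-130101135 and chr19:6732351-6732364).
Run common to GPR107 and GPR108: ctcttcatcaccat
No stretch of 50 bases was common to either pair, so a read of that length places the paralogs apart. Of the 50-base stretches of TMEM87A-202, 17.6% were also found, on the opposite strand, in transcripts of GANC or AC036103.1, which overlap the TMEM87A exons. GANC, a glucosidase gene, had a median of 1.11 FPKM against 15.8 FPKM for TMEM87A. Of the WLS-202 stretches, 3.22% were found in the antisense gene GNG12-AS1, which had a median of 0.134 FPKM. Whether counting used the strand is not given in the sources used here, so fragments in those overlaps cannot be told apart by gene.

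WLS had the highest level of the family and TMEM145 the lowest. Ranked by the median FPKM of the 8 libraries, WLS stood at 36.3, GPR107 at 20.9, GPR108 at 19.8, TMEM87B at 17.5, TMEM87A at 15.8, GPR180 at 9.65, TMEM181 at 4.73 and TMEM145 at 1.75 FPKM. This order was the same in PBS tumors alone, in gluconate tumors alone and without PBS replicate 4. Among the medians of the 12486 genes, WLS was at percentile 86.5, TMEM87A at percentile 71.4 and TMEM145 at percentile 20.8.

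**Figure D1:**
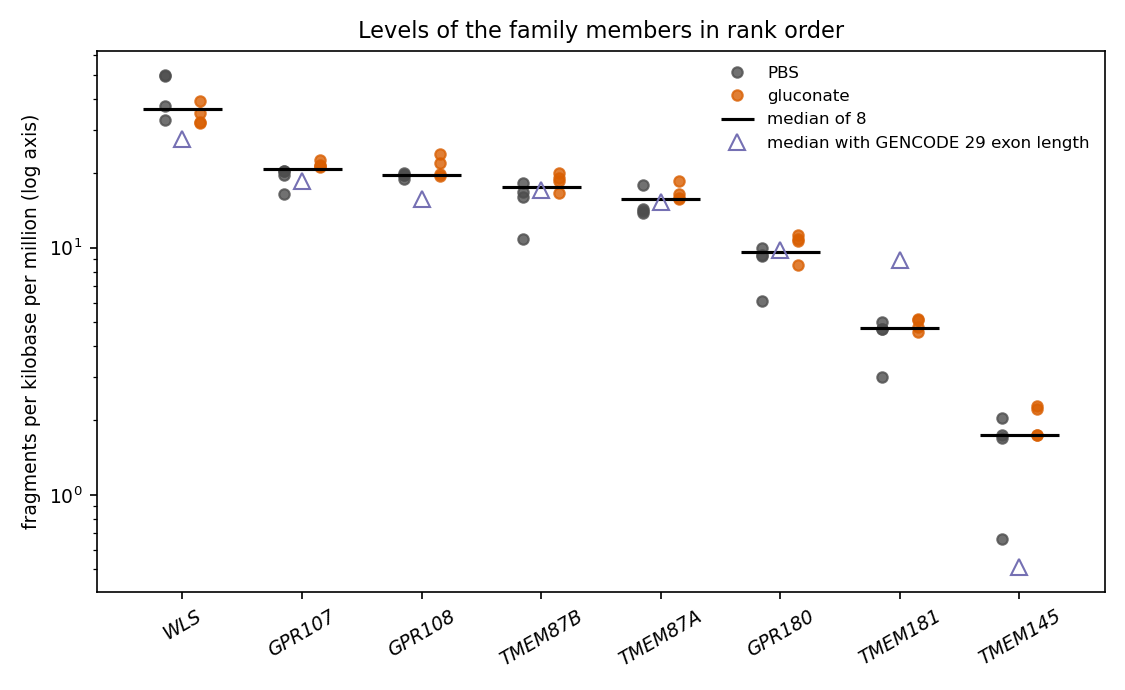
FPKM of each family member on a log axis, with 1 point per library (grey, 4 PBS tumors; orange, 4 gluconate tumors), a bar for the median of 8 and an open triangle for the median computed with GENCODE 29 exon length. The levels run from 36.3 FPKM for WLS to 1.75 FPKM for TMEM145, and GPR107, GPR108, TMEM87B and TMEM87A lie close together between 20.9 and 15.8 FPKM.

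Neighbours in this order are described by the log2(FPKM + 0.1) difference within each library, with no p, since the ranking of the same libraries chose the pairs. WLS was 1.85-fold above GPR107 and higher in 8 of 8 libraries, and the ratio of their medians was 1.48 with GENCODE 29 exon length. By the deposited FPKM, GPR107 and GPR108 did not differ beyond their spread, with a mean log2 difference in level of 0.00 ± 0.13 (SD, n = 8). The ratio of their medians was 1.19 with GENCODE 29 exon length. GPR108 exceeded TMEM87B 1.21-fold in 8 of 8 libraries by the deposited FPKM, but the ratio of their medians was 0.917 with GENCODE 29 exon length. TMEM87B exceeded TMEM87A 1.06-fold, in 7 of 8 libraries, with a mean log2 difference of 0.09 ± 0.20 (SD, n = 8) that was within the spread. Without PBS replicate 4 the same pair differed 1.11-fold, with TMEM87B higher in 7 of 7 libraries. Below these, TMEM87A was 1.68-fold above GPR180, GPR180 was 2.02-fold above TMEM181 and TMEM181 was 2.61-fold above TMEM145, each in 8 of 8 libraries.

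The spacing of the levels rests on the gene length that the deposited FPKM used. For TMEM87A and TMEM87B the length implied by the values, 5486 and 5252 bases, lay near the merged GENCODE 29 exons of 5668 and 5367 bases. For TMEM181 it was 10179 against 5390 bases. For TMEM145 it was 768 against 2640 bases, but the recovered fragments are the smallest whole numbers that fit, and a common factor would lengthen it. With GENCODE lengths TMEM87B (17.1) passed GPR108 (15.7), TMEM181 came to 8.93, TMEM145 came to 0.508, and the other 6 members kept their ranks. The ratio of the GPR180 and TMEM181 medians was then 1.09 and that of TMEM181 and TMEM145 was 17.6, so the size of these steps is not settled by the deposited values.

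**Figure D2:**
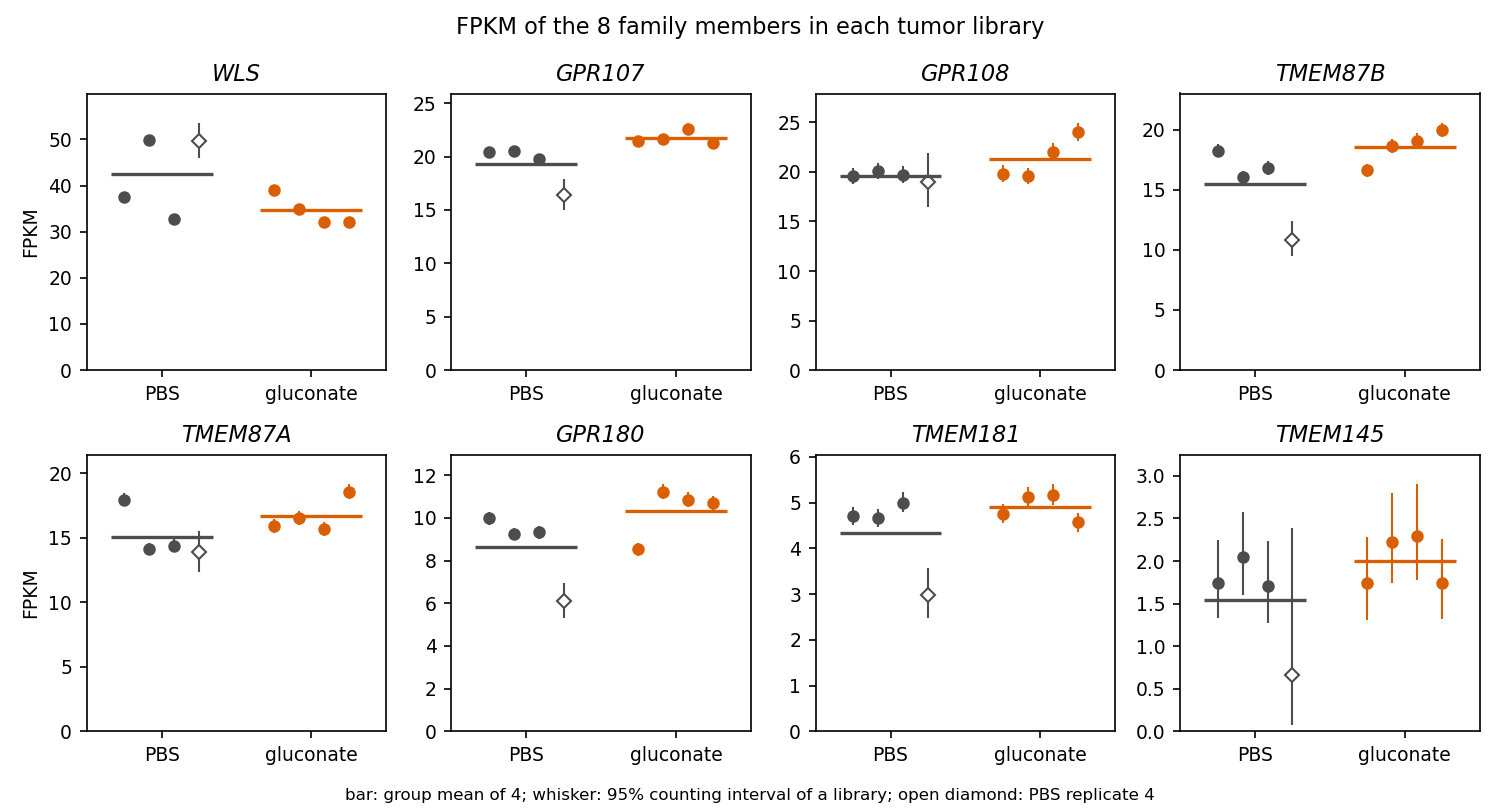
FPKM of each member in each tumor library (linear axes from 0), with PBS in grey and gluconate in orange, a bar for the mean of 4, whiskers for the 95% Poisson counting interval of the library and an open diamond for PBS replicate 4. Only GPR107 has all 4 gluconate tumors above all 4 PBS tumors, and PBS replicate 4 is the lowest point for 7 of the 8 members, all but WLS.

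TMEM87A, the member that the study describes as binding gluconate, had levels that overlapped between the groups. It stood at 17.9, 14.1, 14.4 and 13.9 FPKM in PBS replicates 1 to 4 and at 15.9, 16.5, 15.7 and 18.6 FPKM in gluconate replicates 1 to 4. The groups overlapped through PBS replicate 1, which was above 3 of the 4 gluconate tumors, while the other PBS tumors were below all of them. The means were 15.1 ± 1.92 FPKM in PBS and 16.7 ± 1.31 FPKM in gluconate tumors (SD, n = 4 each). The log2 fold change, gluconate minus PBS, was 0.15 ± 0.10 (SE), and its 95% interval ran from 0.942-fold to 1.30-fold (limma, adjusted p = 0.740 over the 12486 genes). An exact permutation test over all 70 ways to assign the libraries gave p = 0.171, where the smallest possible is 0.0286. The value moved with single libraries and with scaling. It was 0.10 without gluconate replicate 4 and 0.08 after median-ratio scaling. Without PBS replicate 1 it was 0.23, under an unadjusted p of 0.05 (limma, adjusted p = 0.491), and the groups no longer overlapped, at 13.9 to 14.4 FPKM against 15.7 to 18.6 FPKM. In that set of 7 libraries 9.72% of all genes tested were under the same unadjusted p of 0.05, and in 8.34% the gluconate tumors were all higher.

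TMEM87B, the closest relative of TMEM87A, stood at 18.2, 16.1, 16.8 and 10.9 FPKM in PBS replicates 1 to 4. In gluconate replicates 1 to 4 it stood at 16.6, 18.7, 19.1 and 20.0 FPKM. PBS replicate 4 was far below the rest, 3 gluconate tumors were above every PBS tumor, and gluconate replicate 1 fell among the PBS tumors. The means were 15.5 ± 3.22 and 18.6 ± 1.42 FPKM (SD, n = 4 each), a log2 fold change of 0.28 ± 0.15 (SE; limma, adjusted p = 0.740; exact permutation p = 0.0857). Its 95% interval ran from 0.959-fold to 1.55-fold. The difference rested in part on PBS replicate 4, since the log2 fold change without that library was 0.12 ± 0.08 (SE; limma, adjusted p = 0.813). With PBS replicate 1 left out it was 0.37, under an unadjusted p of 0.05 (limma, adjusted p = 0.505). Without gluconate replicate 1, the groups did not overlap for TMEM87B, GPR107 and GPR180, where 5.13% of all genes tested had higher gluconate tumors throughout.

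TMEM87A was below TMEM87B in 7 of 8 tumors. The TMEM87A to TMEM87B ratio of FPKM was 0.983, 0.878 and 0.855 in PBS replicates 1 to 3 and 1.28 in PBS replicate 4. In gluconate replicates 1 to 4 it was 0.957, 0.885, 0.820 and 0.929. PBS replicate 4 was the tumor with more TMEM87A than TMEM87B per length.

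GPR107, a Golgi protein needed for retrograde transport of several toxins, was the member whose groups were separate. It stood at 20.4, 20.5, 19.7 and 16.4 FPKM in PBS replicates 1 to 4 and at 21.5, 21.6, 22.6 and 21.3 FPKM in gluconate replicates 1 to 4. Every gluconate tumor was above every PBS tumor, by 0.773 FPKM at the closest pair. Such separation was seen for 1 of the 8 members, and for 2.08% of all genes tested with gluconate higher. The means were 19.3 ± 1.94 and 21.7 ± 0.595 FPKM (SD, n = 4 each), a log2 fold change of 0.18 ± 0.09 (SE; limma, adjusted p = 0.740), with a 95% interval from 0.987-fold to 1.30-fold. The exact permutation p was 0.0286, the smallest that 8 libraries can give, and was not adjusted. Without PBS replicate 4 the log2 fold change was 0.10 ± 0.06 (SE; limma, adjusted p = 0.813). After quantile normalization it was 0.15, just under an unadjusted p of 0.05 (limma, adjusted p = 0.690), where 6.09% of all genes tested were under an unadjusted p of 0.05.

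GPR108, a paralog of GPR107 used by adeno-associated viruses on their way to the nucleus, was the steadiest member in PBS tumors. It stood at 19.6, 20.1, 19.7 and 19.0 FPKM in PBS replicates 1 to 4, a coefficient of variation of 2.27%. In gluconate replicates 1 to 4 it stood at 19.8, 19.6, 22.0 and 24.0 FPKM. Gluconate replicates 3 and 4 were above all PBS tumors, and gluconate replicates 1 and 2 lay inside their range. The log2 fold change was 0.12 ± 0.08 (SE; limma, adjusted p = 0.740; exact permutation p = 0.200), with a 95% interval from 0.951-fold to 1.24-fold. It was 0.06 without gluconate replicate 4 and 0.05 after median-ratio scaling.

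WLS, the WNT carrier, was the member with a lower mean in gluconate tumors. It stood at 37.6, 49.8, 32.8 and 49.6 FPKM in PBS replicates 1 to 4 and at 39.1, 35.0, 32.1 and 32.2 FPKM in gluconate replicates 1 to 4. PBS replicates 2 and 4 were above all other tumors, and PBS replicates 1 and 3 lay within the gluconate range. The means were 42.4 ± 8.62 and 34.6 ± 3.31 FPKM (SD, n = 4 each). The log2 fold change was -0.28 ± 0.14 (SE; limma, adjusted p = 0.740; exact permutation p = 0.200), and the 95% interval ran from 0.661-fold to 1.03-fold. It was -0.19 without PBS replicate 4 (limma, adjusted p = 0.816) and -0.39 without PBS replicate 3, under an unadjusted p of 0.05 (limma, adjusted p = 0.666), a set in which 4.04% of all genes tested were under that p.

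GPR180, a protein linked to TGF-beta signaling, stood at 9.98, 9.23, 9.32 and 6.09 FPKM in PBS and at 8.52, 11.2, 10.8 and 10.7 FPKM in gluconate replicates 1 to 4. Its gluconate tumors were above the PBS tumors except for gluconate replicate 1, which was above PBS replicate 4 alone. The log2 fold change was 0.27 ± 0.16 (SE; limma, adjusted p = 0.740) and fell to 0.11 ± 0.10 without PBS replicate 4.

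TMEM181, a host factor for cytolethal distending toxin, stood at 4.70, 4.67, 5.00 and 2.99 FPKM in PBS and at 4.76, 5.12, 5.17 and 4.57 FPKM in gluconate replicates 1 to 4. Apart from PBS replicate 4 the PBS tumors lay inside the gluconate range. The log2 fold change of 0.20 ± 0.16 (SE; limma, adjusted p = 0.740) was 0.03 ± 0.08 without that library, with a 95% interval from -0.15 to 0.22 on the log2 scale.

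TMEM145, the scarcest member, stood at 1.75, 2.05, 1.70 and 0.660 FPKM in PBS and at 1.75, 2.23, 2.29 and 1.74 FPKM in gluconate replicates 1 to 4. PBS replicate 4 rested on 2 recovered fragments, whose 95% Poisson interval of 0.0800 to 2.39 FPKM held the values of all other tumors. The interval covers counting error only and would be narrower if the fragments shared a common factor. The log2 fold change of 0.45 ± 0.31 (SE; limma, adjusted p = 0.740) was 0.12 ± 0.14 without that library.

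Across the family, 7 of 8 members had a higher mean and WLS a lower mean in gluconate tumors, and no member passed the test. At an adjusted p under 0.05, limma called 0 of 8 members and 0% of the 12486 genes. At an unadjusted p under 0.05 it called 0 of 8 members, beside 4.62% of all genes tested (577 genes). A second fit, limma voom on the recovered fragments, called 0 members and 0 genes at an adjusted p under 0.05 and 596 genes at an unadjusted p under 0.05. Without PBS replicate 4 the count was again 0 of 8 members, beside 6.18% of all genes tested. The median log2 fold change of the members was 0.19, against 0.07 over all genes tested, of which 66.4% had a higher mean in gluconate tumors. Without PBS replicate 4 these medians were 0.11 and 0.00, and 48.9% of all genes tested were higher.

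**Figure D3:**
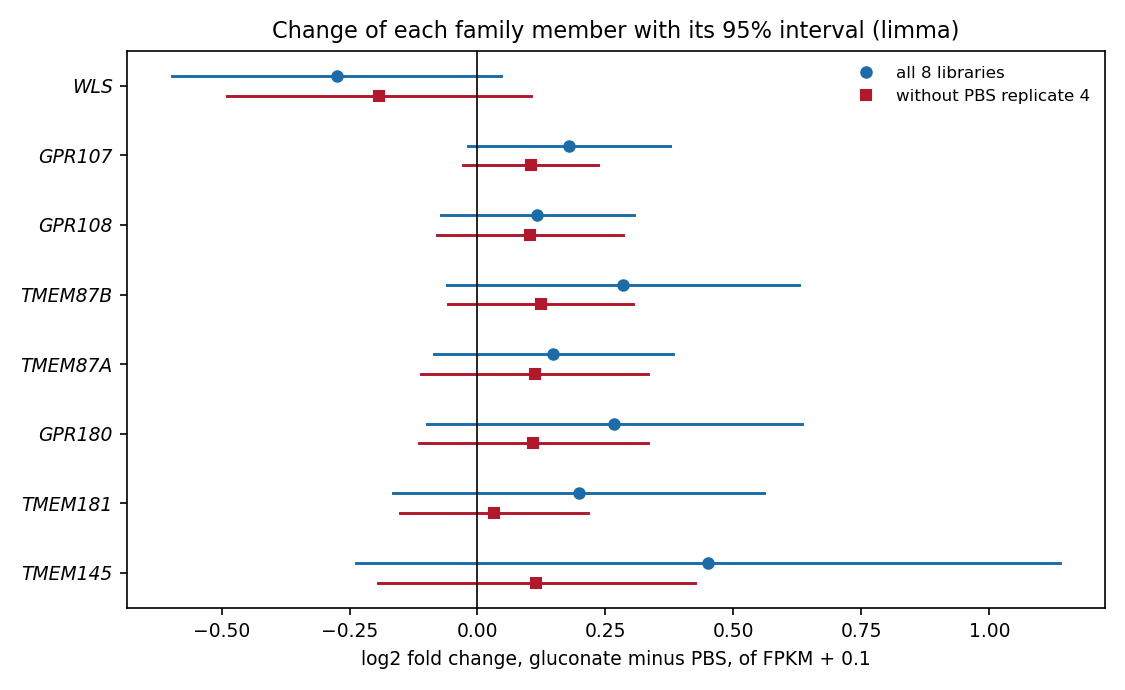
Log2 fold change of each member, gluconate minus PBS, on log2(FPKM + 0.1), with its 95% interval from limma, for all 8 libraries (blue circles) and without PBS replicate 4 (red squares). All intervals include 0, WLS lies to the left, and the red square of each member lies nearer to 0 than its blue circle.

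The library with the least depth was also the one that stood apart for these genes. PBS replicate 4 was the lowest of the 8 libraries for 7 of 8 members, and for 58% of all genes tested, whereas it was the highest for 0 members and for 13.7% of all genes tested. Its upper counting limit lay below the other 7 libraries for 4 members (TMEM87B, GPR107, GPR180 and TMEM181), beside 27.5% of all genes tested. In this library TMEM145 was at 36.1%, TMEM181 at 62.5%, TMEM87B at 63.8%, GPR180 at 64.1%, GPR107 at 81.2%, TMEM87A at 89.6% and GPR108 at 96.1% of the mean of the other PBS tumors. WLS was at 124% of that mean.

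CHP1, the calcium-binding partner of TMEM87A in the study, is not a family member and served as a point of reference. It stood at 23.8, 24.7, 24.3 and 24.2 FPKM in PBS and at 24.4, 25.7, 26.1 and 28.1 FPKM in gluconate replicates 1 to 4. Its groups overlapped, and its log2 fold change was 0.10 ± 0.07 (SE; limma, adjusted p = 0.740). The TMEM87A to CHP1 ratio of FPKM averaged 0.623 ± 0.0884 in PBS and 0.638 ± 0.0264 in gluconate tumors (SD, n = 4 each), with PBS replicate 1 highest at 0.755.

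Genes with the pattern most like each TMEM87 transcript were sought by the mean absolute difference of centred log2(FPKM + 0.1) over the 8 libraries. For TMEM87A these were the zinc-finger gene ZNF329 (0.0348), TMEM184A (0.0402) and IL6ST (0.0404), which encodes the gp130 receptor of interleukin-6 family cytokines. For TMEM87B these were TM2D2 (0.0346), LNPK (0.0362), an endoplasmic reticulum junction protein, and SLC30A5 (0.0374), a zinc transporter of the secretory pathway. TMEM87B was the 2821st nearest gene to TMEM87A at 0.132, where the median over all genes tested was 0.177, and CHP1 ranked 974 among the genes outside the family at 0.104. Over the 7 libraries without PBS replicate 4 TMEM87B ranked 330 and CHP1 ranked 1344 for TMEM87A, and the nearest genes became IL6ST, FZD6 and LSM1 for TMEM87A and CYTH1, LGALSL and TM2D2 for TMEM87B. All these patterns share the same few libraries and their depth.

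Genes around the family were counted in 7 lists. Of the GOLD-domain proteins outside the family, mostly p24 cargo receptors that shuttle between endoplasmic reticulum and Golgi, 13 of 18 were tested, with 1 lower and 1 higher by the unadjusted p and a median log2 fold change of 0.09. Over all genes tested, 186 were lower and 391 higher by that p (4.62% in all), and the median was 0.07. With PBS replicate 4 left out the list had 1 lower, 0 higher and a median of 0.03, beside 419 lower and 353 higher of all genes tested (6.18% in all) and a median of 0.00. TMED5, a p24 protein, was the lower one, at 26.6 ± 3.18 FPKM in PBS and 22.3 ± 0.995 FPKM in gluconate tumors (log2 fold change -0.25; limma, adjusted p = 0.740). TMED9 was the higher one and the most abundant of the list, at 115.4 ± 8.26 and 131 ± 9.86 FPKM (log2 fold change 0.19; limma, adjusted p = 0.740). Without PBS replicate 4 the log2 fold change of TMED5 was -0.33 (limma, adjusted p = 0.802), and that of TMED9 was 0.15 and no longer under an unadjusted p of 0.05 (limma, adjusted p = 0.810).

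The partners of WLS were counted next. Of the 19 WNT ligands, the cargo of WLS, 7 were tested and 0 passed an unadjusted p of 0.05, beside 4.62% of all genes tested. Without PBS replicate 4 it was again 0, beside 6.18%. Their median log2 fold change was 0.29, and 0.26 without PBS replicate 4, beside 0.07 and 0.00 over all genes tested. Above 0 were 5 of 7, and again 5 of 7 without PBS replicate 4, beside 66.4% and 48.9% of all genes tested. WNT5B was the most abundant at 10.4 ± 2.87 FPKM in PBS and 11.4 ± 2.28 FPKM in gluconate tumors. WNT5A was at 1.25 ± 0.207 and 1.55 ± 0.209 FPKM (log2 fold change 0.29; limma, adjusted p = 0.740), and WNT10B at 0.953 ± 0.444 and 0.638 ± 0.155 FPKM (log2 fold change -0.45; limma, adjusted p = 0.740). Of the genes for WNT acylation and WLS recycling, 9 of 10 were tested and 0 passed, beside 4.62% of all genes tested. Their median log2 fold change was 0.09, and 0.03 without PBS replicate 4. SNX3, the sorting nexin that returns WLS with retromer, was the most abundant at 112 ± 3.82 and 119.8 ± 5.51 FPKM. ATP9A had the lowest p of those with a higher mean (log2 fold change 0.37; limma, adjusted p = 0.740), and the retromer subunit VPS26B had a log2 fold change of 0.00. In the 7 libraries without PBS replicate 4 the log2 fold change was 0.14 for ATP9A, -0.09 for VPS26B, -0.19 for WNT10B, whose PBS replicate 4 was at 1.58 FPKM with at most 0.908 FPKM elsewhere, and 0.29 in place of 0.16 for WNT5B.

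Other Golgi lists gave few calls as well. Of the 17 endosome-to-Golgi transport genes, all were tested and 0 passed, beside 4.62% of all genes tested, with a median log2 fold change of 0.05. VPS54, a tethering subunit, was at 7.68 ± 1.36 FPKM in PBS and 6.19 ± 0.442 FPKM in gluconate tumors, ARL1, a Golgi GTPase, at 35.0 ± 3.11 and 38.9 ± 1.49 FPKM (limma, adjusted p = 0.740 for both), and RAB6A, the most abundant, at 56.0 ± 9.61 and 52.6 ± 3.80 FPKM. Leaving out PBS replicate 4 took the log2 fold change of VPS54 from -0.29 to -0.18 and turned that of RAB6A from -0.08 to 0.03. Of the genes for Golgi ion and pH balance, 13 of 14 were tested, with 0 lower and 1 higher at an unadjusted p under 0.05, beside 4.62% of all genes tested, and with a median log2 fold change of 0.18. With PBS replicate 4 left out the list had 1 lower, 0 higher and a median of 0.11, and the calls over all genes tested turned the same way, from 186 lower and 391 higher to 419 lower and 353 higher. The lower one was then SLC30A7, a Golgi zinc transporter named after its values were seen, whose log2 fold change was -0.28 without that library and -0.14 with it. The higher one was TMEM165, a Golgi cation transporter, at 22.2 ± 4.12 FPKM in PBS and 27.7 ± 2.82 FPKM in gluconate tumors (log2 fold change 0.33; limma, adjusted p = 0.740). It was 0.20 when PBS replicate 4 was left out (limma, adjusted p = 0.810). GPR89B, a Golgi anion channel gene whose reads may be split with its near-identical copy GPR89A, was at 1.75 ± 0.386 and 1.30 ± 0.294 FPKM, and the calcium and manganese pump ATP2C1 was the most abundant at 39.7 ± 4.08 and 40.6 ± 3.04 FPKM, with a log2 fold change of 0.03 that was -0.04 without PBS replicate 4.

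Of the mechanosensitive ion channels, 7 of 17 were tested and 0 passed an unadjusted p of 0.05, beside 4.62% of all genes tested. Means were higher in gluconate tumors for 6 of 7, beside 66.4% of all genes tested. The median log2 fold change was 0.28, beside 0.07 over all genes tested. Without PBS replicate 4, 0 passed, beside 6.18% of all genes tested, and 6 of 7 were higher, beside 48.9%. The median was then 0.07, beside 0.00 over all genes tested. PIEZO1, the most abundant channel of the list, was at 20.0 ± 2.00 FPKM in PBS and 21.2 ± 0.422 FPKM in gluconate tumors. PKD2 was at 4.51 ± 0.942 and 5.50 ± 0.441 FPKM (log2 fold change 0.30; limma, adjusted p = 0.740), and TMEM63B at 9.68 ± 3.30 and 8.29 ± 0.913 FPKM. PBS replicate 4 held the highest TMEM63B, 14.6 FPKM, with at most 9.34 FPKM elsewhere, and without it the log2 fold change of TMEM63B turned from -0.18 to 0.04, while that of PKD2 was 0.16 and that of PIEZO1 went from 0.09 to 0.01. All 9 Golgi host factors of toxin and virus entry were tested and 0 passed, with 9 of 9 means higher in gluconate tumors, beside 66.4% of all genes tested, and a median log2 fold change of 0.17. With PBS replicate 4 left out, 8 of 9 were higher, beside 48.9% of all genes tested, and the median was 0.11. TM9SF2, a Golgi membrane protein used by toxins, was at 23.5 ± 3.12 and 27.4 ± 1.47 FPKM (log2 fold change 0.23; limma, adjusted p = 0.740), and LAPTM4A was the most abundant at 283 ± 71.1 and 282 ± 31.1 FPKM. In the set without PBS replicate 4 the log2 fold change was 0.13 for TM9SF2 and 0.17, in place of 0.02, for LAPTM4A.

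**Figure D4:**
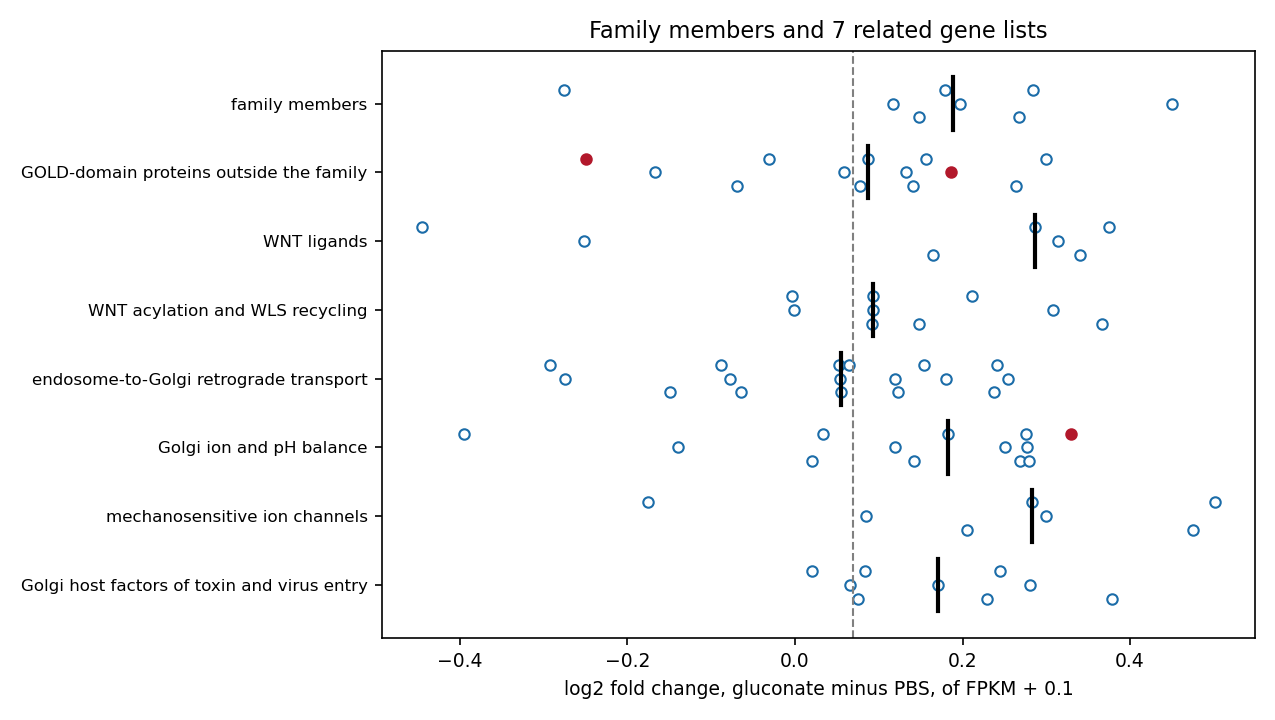
Log2 fold change, gluconate minus PBS, of each tested gene among the family members and in 7 related lists, with a filled red point at an unadjusted p under 0.05, an open blue point otherwise, a black bar for the median and a dashed line for the median of all genes tested (0.07). The 3 filled points are TMED5, TMED9 and TMEM165, and none is a family member.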

How the data were processed

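Bulk poly(A) RNA sequencing of 4 PBS and 4 gluconate tumors was used, with groups taken from the labels. The authors deposited FPKM values for 24196 genes, and the submitters' processing notes name GRCh38. The aligner, annotation, counting settings and any removal of mouse reads are not given in the sources used here. The column letters of the table were read as control (C) and treated (T). Whole fragments were recovered from the FPKM steps for 99.996% of genes (tolerance 1e-06), with 3942327 fragments in PBS replicate 4 and at least 39221668 elsewhere. Counting intervals cover counting error only.

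Differences were tested with limma 3.58.1 (R 4.3.3, eBayes with trend, checked on simulated data) on log2(FPKM + 0.1), for the 12486 genes averaging 0.5 FPKM or more. Fold changes are on that scale, which understates low genes. P-values were adjusted by Benjamini-Hochberg over all genes tested. Exact permutation tests used scipy 1.17.1. The study counts mice per group, but no label ties a tumor to a mouse, so p-values measure the spread between these samples. The alternatives were pseudocounts of 1 and 0.01, no filter, a filter at 1 FPKM, median-ratio scaling, quantile normalization, limma voom on recovered fragments, the replicate number as a block and each library left out in turn. Sequences came from GENCODE 29 and the study's primer list.

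Members and lists were chosen with earlier results of these data known. Named genes were the 8 members, CHP1, the 3 genes nearest in pattern to each TMEM87 transcript, and in each list the gene with the lowest p in each direction and the most abundant one.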

Additional observations from a re-analysis of the deposited data

Results flagged for a closer look

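In 3 of the 24 sets of 4 values examined (the FPKM of the 8 members and CHP1, and 3 ratios, in each group), a sample lay farther from its nearest neighbour than Dixon's critical value at 95% allows, where chance gives about 1 set in 20. TMEM87A in PBS replicate 1 was at 17.9 FPKM, with the other PBS tumors between 13.9 and 14.4 FPKM. The TMEM87A to CHP1 ratio was 0.755 in the same tumor, against 0.572 to 0.590 in the others. It uses the same TMEM87A value, so these sets are not independent of each other. TMEM181 in PBS replicate 4, the library of least depth, was at 2.99 FPKM, with the other PBS tumors between 4.67 and 5.00 FPKM.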

How the results depend on the processing

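The direction of the log2 fold change was the same for each of the 8 members under all 16 alternatives, and the lowest adjusted p among these 128 values was 0.491. Over these alternatives it ranged from 0.08 to 0.23 for TMEM87A, 0.12 to 0.37 for TMEM87B, 0.10 to 0.21 for GPR107, 0.05 to 0.16 for GPR108, 0.11 to 0.36 for GPR180, 0.12 to 0.61 for TMEM145, 0.03 to 0.27 for TMEM181 and -0.39 to -0.19 for WLS. The members at an unadjusted p under 0.05 numbered 0, but 1 (GPR107) after quantile normalization and 0 to 2 when single libraries were left out. All genes tested at that p numbered 577, 1028 with no filter on low values and 267 to 1214 with single libraries left out. Members whose groups did not overlap numbered 1, and 1 to 3 with single libraries left out. Of the 6 genes most like TMEM87A and TMEM87B, 2 were found again without PBS replicate 4. GENCODE 29 lengths, an alternative chosen after seeing the data, moved 2 of the 8 ranks and kept 6. With the replicate block, 470 genes and 0 members were at an unadjusted p under 0.05, and TMEM87A stayed at 0.15 (adjusted p = 0.758). Whether the replicate numbers pair the tumors cannot be decided from so few libraries. Correlations of same-numbered tumors were -0.18, 0.08, 0.17 and -0.06, and 2 of 4 pairs correlated best with their own number. The depth of PBS replicate 4 limits TMEM145 most, at 2 fragments.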
